A study of Homo sapiens with 8 samples.

Results

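The genes described here are 44 genes that carry out or feed DNA replication, taken by their symbols from the deposited gene tables: MCM2 to MCM7 and MCM10, ORC1 to ORC6, CDC6, CDT1, CDC45, GINS1 to GINS4, POLA1, POLA2, PRIM1, PRIM2, POLD1, POLD2, POLE, POLE2, PCNA, RFC1 to RFC5, RPA1 to RPA3, FEN1, LIG1, TOP2A, RRM1, RRM2, TYMS and TK1. All 44 were found among 57756 listed genes. All 44 also passed the minimum on counts, which 19921 genes passed, and all were at 1 FPKM or more in every library. FPKM, the fragments per kilobase of transcript and depth, is a level per length.

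The study asked which RNAs are bound by RPS6 (ribosomal protein S6, of the small subunit) in human cancer cells. RNA immunoprecipitation (RIP) with an antibody to RPS6 was followed by sequencing of the captured RNA and of the input, an aliquot of the same lysate kept before the immunoprecipitation. The cells were 4 established lines without any named treatment: a hepatocellular carcinoma line, the colorectal carcinoma line HCT116, the prostate carcinoma line DU145 and the pancreatic carcinoma line SW1990. Each line gave 1 RIP and 1 input library, 8 in all. The lines therefore serve as the replicates of the comparison of RIP with input, and within a line there is no replicate and no test. No library made with an unrelated antibody was analysed here. Nothing in the sources says how many cultures stood behind a library.

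The liver line is called 3B in the sample titles and Hep3B in the paper, but Huh7 in the field for the cell line. It is called Hep3B here. All 7 liver markers were at 74.97 FPKM or more in its input, and ALB was at 5030. Which of the 2 named lines it was is not settled here. Some defining markers of the other labels were low. In DU145, KLK3 was listed at 0 in the input. In HCT116, VIL1 and CDX1 were listed at 0 and CDX2 was at 6.25, while CDX2 was at 86.6 in SW1990. Of the pancreatic duct markers, KRT19 was at 229 in the SW1990 input but at 570 in that of HCT116. MUC1 was at 1.16 in SW1990 and at 76.6 in DU145. Each RIP library nevertheless resembled its own input more than any other input, so the comparison within a line does not depend on the line's name.

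Depth was between 35796276 and 54209591 fragments in the inputs and between 34630231 and 42610124 in the RIP libraries. Hep3B and HCT116 were deposited in 1 gene table and DU145 and SW1990 in another, which may have been normalized separately, and levels set side by side across these tables carry that limit. The nuclear RNAs MALAT1 and NEAT1 were lower in RIP than in input in every line, and the third nuclear RNA, KCNQ1OT1, was at 0.729 FPKM or less everywhere. The part of nuclear RNA loss in the results below was not tested.

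DNA replication starts at origins, where the origin recognition complex (ORC1 to ORC6) together with CDC6 and CDT1 loads the MCM2 to MCM7 ring, the core of the replicative helicase. CDC45 and the GINS complex turn the ring into an active helicase, DNA polymerase alpha and primase make the primers, and polymerases delta and epsilon copy the strands with the clamp PCNA and its loader RFC. Many of these genes are transcribed at the entry into S phase under E2F factors, and their mRNAs are high in proliferating cells such as tumor lines.

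Promoters are shown first for the genes on which the results below turn: 4 members of the MCM ring, which rose together in RIP, and the catalytic and the accessory subunit of polymerase epsilon, which moved in opposite directions. The sequences are RefSeq windows of GRCh38.p14 from 250 bases before to 50 after the start of the gene, written 5′ to 3′ on the strand of the gene. Capitals mark matches to the E2F motif, searched as the letters TTTCGCGC, TTTGGCGC and TTTCCCGC on both strands. MCM7 has several windows in RefSeq, and the one with matches is shown.
MCM2 promoter, chr3:127598161-127598460, plus strand: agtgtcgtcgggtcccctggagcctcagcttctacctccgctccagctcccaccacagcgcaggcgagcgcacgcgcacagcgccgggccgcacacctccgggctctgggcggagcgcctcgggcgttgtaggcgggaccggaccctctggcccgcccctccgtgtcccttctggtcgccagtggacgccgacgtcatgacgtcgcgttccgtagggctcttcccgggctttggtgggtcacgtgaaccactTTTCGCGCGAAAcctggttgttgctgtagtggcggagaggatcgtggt
MCM3 promoter, chr6:52284693-52284992, minus strand: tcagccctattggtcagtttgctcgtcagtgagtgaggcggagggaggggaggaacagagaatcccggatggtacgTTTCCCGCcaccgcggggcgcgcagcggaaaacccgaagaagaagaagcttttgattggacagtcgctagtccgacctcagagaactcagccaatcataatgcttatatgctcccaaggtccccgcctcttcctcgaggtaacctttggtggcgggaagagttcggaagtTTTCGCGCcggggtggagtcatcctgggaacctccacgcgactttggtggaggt
MCM6 promoter, chr2:135876394-135876693, minus strand: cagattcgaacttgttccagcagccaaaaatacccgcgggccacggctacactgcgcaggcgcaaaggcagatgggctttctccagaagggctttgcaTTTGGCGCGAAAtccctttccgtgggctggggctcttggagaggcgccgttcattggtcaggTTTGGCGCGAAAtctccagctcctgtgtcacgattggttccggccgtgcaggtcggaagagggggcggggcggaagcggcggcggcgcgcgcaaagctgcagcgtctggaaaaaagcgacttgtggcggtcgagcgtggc
MCM7 promoter, chr7:100101348-100101647, minus strand: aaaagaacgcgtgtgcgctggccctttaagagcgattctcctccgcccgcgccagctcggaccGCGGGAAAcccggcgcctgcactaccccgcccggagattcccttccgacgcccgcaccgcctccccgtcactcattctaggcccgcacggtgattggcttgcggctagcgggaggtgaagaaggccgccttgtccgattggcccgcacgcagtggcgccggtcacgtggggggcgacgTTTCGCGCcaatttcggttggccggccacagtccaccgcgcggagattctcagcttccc
POLE promoter, chr12:132687293-132687592, minus strand: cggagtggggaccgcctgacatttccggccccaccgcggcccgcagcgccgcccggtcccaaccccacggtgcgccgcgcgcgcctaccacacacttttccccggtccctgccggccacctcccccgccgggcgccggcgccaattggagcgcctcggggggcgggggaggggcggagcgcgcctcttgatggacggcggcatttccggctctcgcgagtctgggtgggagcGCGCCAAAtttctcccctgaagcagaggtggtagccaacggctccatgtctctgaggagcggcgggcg
POLE2 promoter, chr14:49688165-49688464, minus strand: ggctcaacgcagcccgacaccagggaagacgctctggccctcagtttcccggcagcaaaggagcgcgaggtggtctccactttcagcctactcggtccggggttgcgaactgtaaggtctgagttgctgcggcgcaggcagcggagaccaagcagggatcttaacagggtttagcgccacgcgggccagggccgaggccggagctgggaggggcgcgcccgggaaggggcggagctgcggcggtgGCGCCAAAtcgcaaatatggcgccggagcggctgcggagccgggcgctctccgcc

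Of the 44 genes, 39 had a RefSeq promoter entry, and MCM4, MCM5, GINS4, RPA2 and RPA3 had none. Matches were found for 18 of 39 (46.2%), against 717 of 15843 coding genes with an entry (4.53%) and 961 of 35116 windows of the same length (2.74%). In MCM2 the matches began 2 and 6 bases after the start and overlapped. MCM6 held 4 matches in overlapping pairs, the nearest beginning 86 bases before the start. POLE had a match beginning 18 bases before its start and POLE2 one beginning 5 bases before. The other genes with matches were CDC6, CDT1, GINS1, GINS2, GINS3, LIG1, ORC3, PCNA, POLA1, POLA2, RFC3 and TYMS. Matches stood in 8 of 17 members higher in RIP, in 4 of 12 that were lower and in 6 of 10 that passed the test in neither direction. They were therefore present on both sides, and a match of letters is not evidence that a factor binds there.

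In RIP against input, replication mRNAs were split between higher and lower, also within complexes. With edgeR's quasi-likelihood test, the cell line as a block and Benjamini-Hochberg adjustment over all genes tested, 19 of the 44 were higher in RIP at an adjusted p under 0.05, 15 were lower and 10 passed in neither direction. Over all genes tested, 26.5% were higher and 24.9% lower, and among the 13564 coding genes tested, 32.3% and 26.1%. The median log2 fold change, RIP over input from counts, was 0.11 for the 44, -0.05 over all genes and 0.13 over coding genes. A change of more than 1 on the log2 scale in either direction was found for 22 of the 44, and for 50.8% of coding genes. The size of the changes was thus near that of coding genes in general. The split depended on the scaling. With library sizes only it was 16 higher and 20 lower among the 44 (3888 and 6384 over all genes, against 5282 and 4960 in the main comparison), and with limma on log2(FPKM + 1) it was 21 and 8. Without the DU145 pair, 17 were higher and 9 lower.

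**Figure D1:**
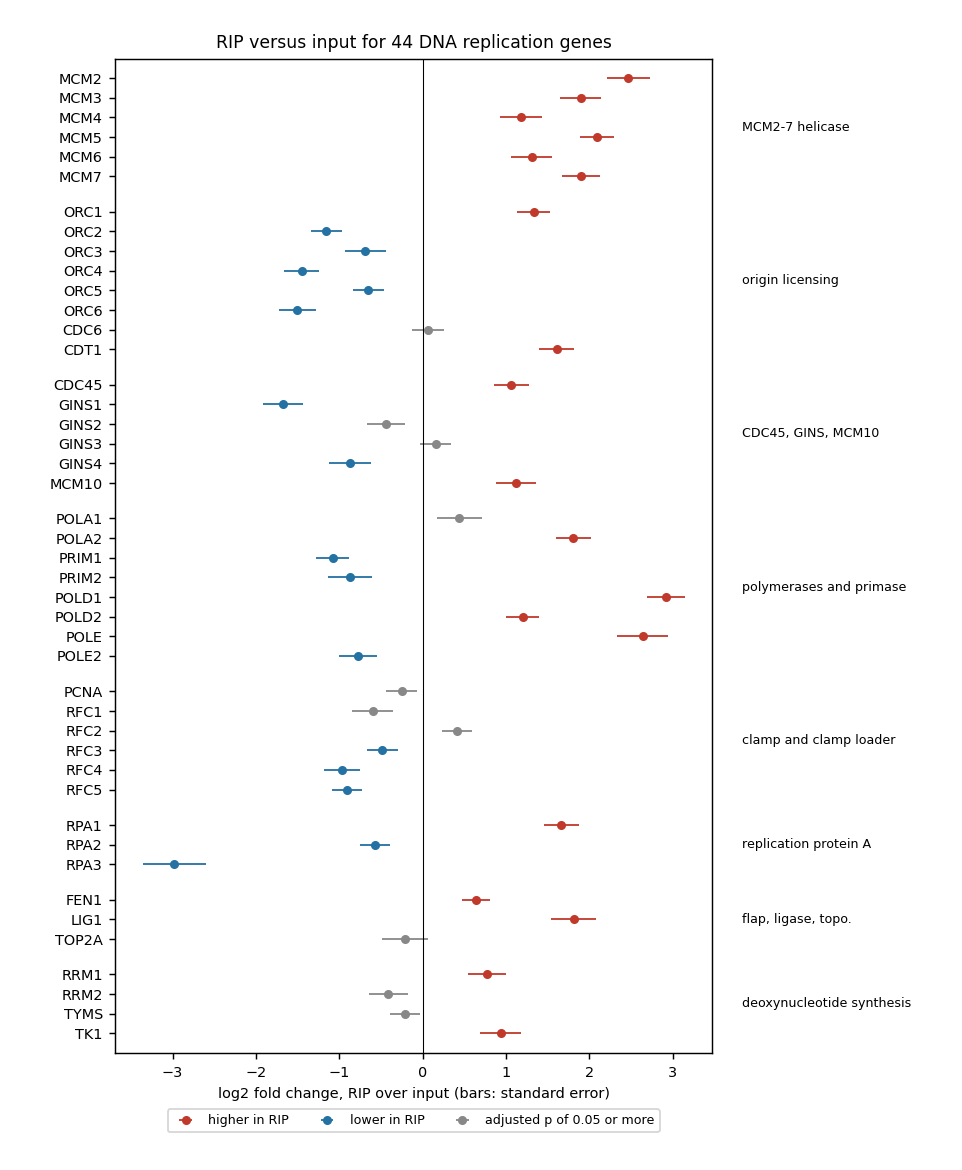
Log2 fold change of RIP over input from the edgeR fit (horizontal axis) for the 44 genes, grouped by role (vertical axis), with bars for the standard error over 4 pairs of libraries. Red points passed an adjusted p of 0.05 as higher, blue points as lower and grey points in neither direction. All 6 genes of the MCM ring lie right of 0 and 5 of the 6 ORC genes lie left of it.

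By FPKM, 15 members lay higher in every RIP library than in any input, where 10.9% of all genes tested did so, and 3 lay lower than in any input, where 8.17% did. The log2 ratio of RIP to input was taken per line as log2 of (FPKM + 1) in both libraries. It was above 0 in every line for 21 members and below 0 in every line for 12. The share of all genes tested with 1 direction in every line was not counted, so these numbers and the next have no background here. All 19 members called higher and 12 of the 15 called lower had the same direction in all lines. The exceptions were ORC2, RFC3 and RFC5, which were lower by the test but not on FPKM in Hep3B. FPKM and count ratios are not the same measure, and for RRM1, whose log2 ratio of FPKM lay between 1.02 and 2.10, the log2 fold change of counts was 0.77 ± 0.23 (SE). Below, values of a gene are FPKM in the order Hep3B, HCT116, DU145, SW1990, and log2 fold changes are from counts with their SE and edgeR's adjusted p, over 4 pairs.

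All 6 genes of the MCM ring were higher in RIP, with log2 fold changes between 1.18 and 2.47. MCM2 was at 25.3, 26.9, 14.1 and 17.3 FPKM in the inputs and at 91.2, 261, 67.6 and 74.8 in RIP. Its RIP and input levels did not overlap, and the HCT116 RIP library stood far above the others (log2 fold change 2.47 ± 0.26, adjusted p = 3.3e-05). MCM5 had input levels of 56.0, 57.7, 39.9 and 25.2 and RIP levels of 246, 315, 193 and 130. Here the log2 ratio was nearly even over the lines, between 2.12 and 2.43 (log2 fold change 2.09 ± 0.20, adjusted p = 2.1e-05). MCM7, at 41.3, 89.0, 56.0 and 72.2 in the inputs, was at 129, 535, 185 and 249 in RIP (1.90 ± 0.23, adjusted p = 7.5e-05). MCM3 went from 53.9, 44.7, 34.2 and 33.1 in the inputs to 186, 308, 125 and 103 in RIP (1.90 ± 0.25, adjusted p = 0.00012). Every MCM3 and MCM7 level in RIP was above every level in input. MCM4 was the most abundant ring subunit in the inputs, at 112, 143, 144 and 160, and was at 243, 591, 289 and 475 in RIP. It had the smallest log2 fold change of the ring, 1.18 ± 0.25 (adjusted p = 0.0027). MCM6 was at 16.8 to 28.4 in the inputs and at 30.8 to 130 in RIP (1.31 ± 0.24, adjusted p = 0.0012). Without the block for the cell line, MCM4 and MCM6 no longer passed the test, and MCM2, MCM3, MCM5 and MCM7 did.

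The 6 ring genes together summed to 305, 389, 308 and 327 FPKM in the inputs and to 927, 2140, 911 and 1101 in RIP. The fold of the sum was 5.49 in HCT116 and between 2.96 and 3.37 in the other lines. MCM10, a replication factor outside the ring, was at 4.84 to 8.99 in the inputs and 12.1 to 38.7 in RIP (log2 fold change 1.12 ± 0.24, adjusted p = 0.0029).

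**Figure D2:**
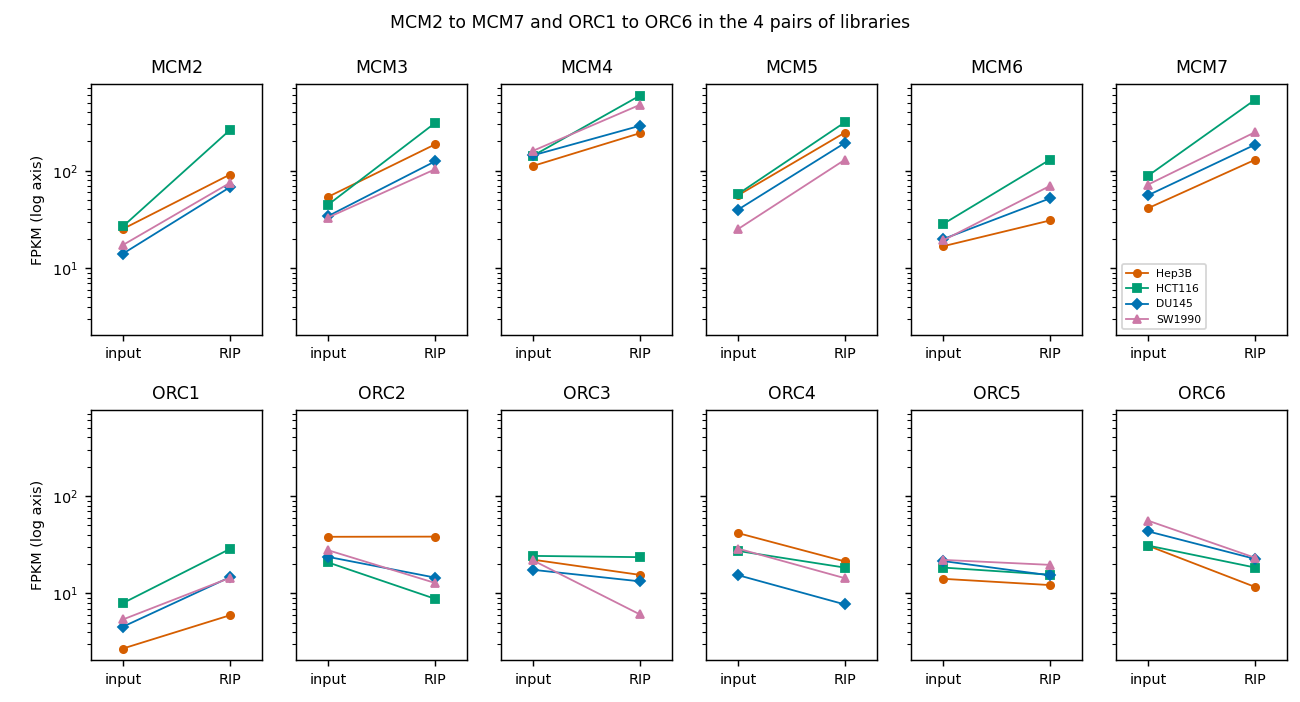
FPKM on a log axis in input and RIP for MCM2 to MCM7 (upper row) and ORC1 to ORC6 (lower row), with a line joining the input and the RIP library of each cell line. The lines rise in every MCM panel and in that of ORC1, and fall or stay level in those of ORC2 to ORC6.

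The mRNAs of the origin recognition complex, which marks origins and loads the ring, did not move together. ORC1, the largest subunit, was higher in RIP, from 2.72, 7.97, 4.56 and 5.41 FPKM in the inputs to 5.97, 28.6, 14.7 and 14.45 (log2 fold change 1.33 ± 0.20, adjusted p = 0.00032). It was higher within each line, although RIP in Hep3B lay below the input in HCT116. The other 5 subunits were lower. ORC6 was at 30.9, 31.0, 43.4 and 55.9 in the inputs and at 11.7, 18.5, 22.7 and 23.3 in RIP, with no overlap (-1.51 ± 0.22, adjusted p = 0.00027). ORC4 was at 41.7, 27.3, 15.4 and 28.8 in the inputs and 21.3, 18.4, 7.71 and 14.3 in RIP (-1.45 ± 0.21, adjusted p = 0.00023). ORC4 was lower in every line, but its groups overlapped because the DU145 input was itself low. ORC2, ORC3 and ORC5 had log2 fold changes of -1.16 ± 0.18, -0.69 ± 0.25 and -0.65 ± 0.18. The calls of ORC3 and ORC5 were lost without the DU145 pair and with limma on FPKM, where ORC5 was at -0.26 on the log2(FPKM + 1) scale. ORC3 also lost its call without the Hep3B pair and without the SW1990 pair (-0.44, adjusted p = 0.16). Within each line the ratio of ORC1 exceeded that of ORC6 by 2.23 to 2.497 on the log2 scale, with a mean of 2.39 ± 0.11 (SD, n = 4 lines). Against ORC2 the difference was 2.07 ± 0.84 and against ORC5 it was 1.61 ± 0.42. Here and below, such differences start from the subunit with the higher mean ratio. The sign of their mean follows from that choice, and they were not tested. Such differences were not computed between other coding genes, so they have no background here.

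CDT1, which brings the ring to ORC, was higher in RIP, with 19.4, 106.5, 21.4 and 35.5 FPKM in the inputs and 95.5, 283, 86.1 and 87.2 in RIP (log2 fold change 1.61 ± 0.21, adjusted p = 0.00011). The groups overlapped because the HCT116 input exceeded 3 of the RIP libraries. CDC6, the ATPase that works beside it, had a log2 fold change of 0.06 ± 0.20 (adjusted p = 0.81). Its sign was negative, -0.29, with library sizes only.

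Among the factors that activate the helicase, CDC45 and the GINS subunits differed. CDC45 was at 15.8 to 36.8 FPKM in the inputs and 22.0 to 69.4 in RIP (log2 fold change 1.06 ± 0.21, adjusted p = 0.0017). GINS1 was at 27.5, 28.1, 17.5 and 18.6 in the inputs and at 14.7, 7.88, 5.64 and 11.2 in RIP, all below any input (-1.67 ± 0.24, adjusted p = 0.00022). GINS4 went from 13.5, 16.1, 16.3 and 10.7 to 6.38, 14.7, 12.5 and 7.10 (-0.87 ± 0.25, adjusted p = 0.014). It was lower in every line with overlapping groups, and the call was lost without the DU145 pair and with limma on log2(FPKM + 0.1) (-0.54, adjusted p = 0.079) or log2(FPKM + 1) (adjusted p = 0.089). GINS2 had the highest mean input level of this group and varied widely between lines, at 10.6, 34.0, 15.0 and 58.0 in the inputs and 11.1, 23.5, 14.7 and 26.8 in RIP (-0.44 ± 0.23, adjusted p = 0.13). With library sizes only it passed as lower (-0.79). GINS3 had a log2 fold change of 0.15 ± 0.19, and -0.19 with library sizes only. The ratio of CDC45 exceeded that of GINS1 in each line, by 2.25 ± 0.76 on the log2 scale (SD, n = 4).

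The DNA polymerases held the members with the largest log2 fold changes of the 44 upward. POLD1, the catalytic subunit of polymerase delta, rose from 8.72, 21.9, 21.5 and 35.0 FPKM in the inputs to 47.8, 224, 89.7 and 195 in RIP (log2 fold change 2.92 ± 0.22, adjusted p = 1.3e-05). POLE, the catalytic subunit of polymerase epsilon, rose from 28.9, 15.5, 24.6 and 23.6 to 64.6, 133, 101 and 90.1 (2.64 ± 0.31, adjusted p = 6.1e-05). In both genes every RIP level lay above every input level, and the log2 ratio was highest in HCT116, at 3.30 for POLD1 and 3.02 for POLE. POLD2, the accessory subunit of delta, was at 66.8, 128, 67.2 and 145 in the inputs and 176, 190, 140 and 372 in RIP (1.20 ± 0.19, adjusted p = 0.00048). POLE2, the accessory subunit of epsilon whose promoter is printed above beside that of POLE, was at 9.53, 20.5, 44.7 and 15.6 in the inputs and at 7.515, 18.1, 25.6 and 4.92 in RIP (-0.78 ± 0.23, adjusted p = 0.015). POLE2 was lower in every line, and it no longer passed the test without the DU145 or the SW1990 pair or with limma on log2(FPKM + 1). The log2 ratio of POLE exceeded that of POLE2 by 1.44 in Hep3B and by 2.78 to 3.38 in the other lines.

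Polymerase alpha and primase, which form 1 complex, were also divided, with POLA2 higher and both primase mRNAs lower. POLA2, the regulatory subunit of polymerase alpha, was at 21.7, 17.2, 24.0 and 11.6 FPKM in the inputs and 74.4, 71.3, 62.8 and 56.0 in RIP (log2 fold change 1.81 ± 0.21, adjusted p = 5.5e-05). PRIM1, the catalytic primase subunit, was at 29.2, 47.25, 26.3 and 30.7 in the inputs and 21.6, 29.1, 17.0 and 13.0 in RIP (-1.08 ± 0.20, adjusted p = 0.0011). PRIM2, the large primase subunit, was at 17.2, 18.8, 11.2 and 5.60 in the inputs and 5.39, 13.6, 8.26 and 3.56 in RIP (-0.87 ± 0.26, adjusted p = 0.018). Both primase mRNAs were lower in each line, with overlap between lines, and PRIM2 lost its call without the DU145 pair. POLA1, the catalytic subunit of alpha, had a log2 fold change of 0.44 ± 0.27 (adjusted p = 0.20), although its RIP levels of 8.82 to 15.8 lay above its input levels of 4.08 to 7.95. With limma on log2(FPKM + 1) it passed as higher (0.70 ± 0.24, adjusted p = 0.047). POLA2 exceeded PRIM1 in log2 ratio by 2.53 ± 0.62 (SD, n = 4 lines) and was higher in each line.

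**Figure D3:**
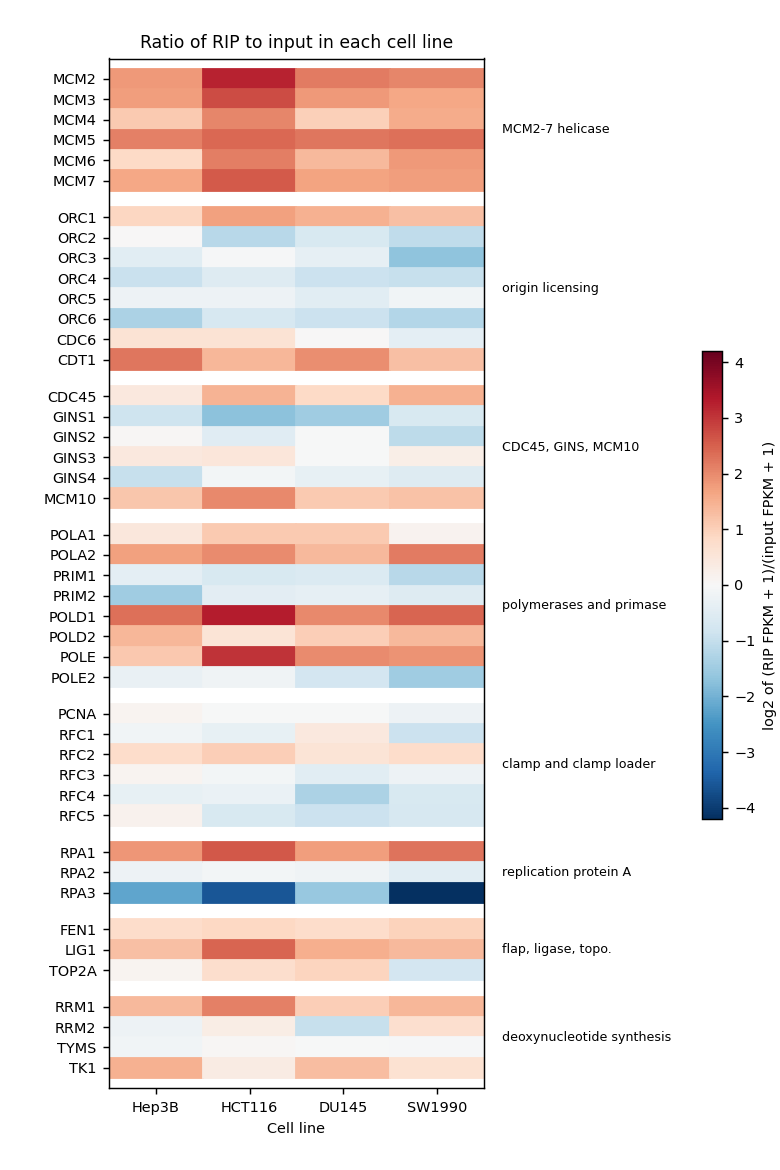
Log2 of the ratio of RIP to input FPKM, each with 1 added, for the 44 genes (rows, by role) in the 4 cell lines (columns), as colour from blue, below input, to red, above input. Rows of 1 colour across the lines stand beside rows of the opposite colour in the same complex, such as RPA1 and RPA3 or POLE and POLE2.

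Replication protein A, which coats single-stranded DNA, had 1 subunit higher and 2 lower. RPA1, its large subunit, was higher, at 49.97, 56.8, 31.4 and 17.9 FPKM in the inputs and 182, 355, 109 and 90.3 in RIP (log2 fold change 1.66 ± 0.21, adjusted p = 0.00011). RPA3, its smallest subunit, was at 128, 79.9, 47.7 and 130 in the inputs and 27.0, 5.65, 15.2 and 6.21 in RIP (-2.98 ± 0.38, adjusted p = 0.0001). Every RPA3 level in RIP was below every input level, and RPA3 was the lowest of the 44 by log2 ratio in each line. RPA2 had a log2 fold change of -0.57 ± 0.18 (adjusted p = 0.022), which was lost without the DU145 or the SW1990 pair and with limma on log2(FPKM + 1) (-0.24, adjusted p = 0.26). Within lines RPA1 exceeded RPA3 by 3.35 to 6.45 in log2 ratio, with a mean of 5.02 ± 1.55 (SD). The RPA3 locus listed in the tables, hg19 chr7:7676148-8133902, also covers 10 other listed genes, among them GLCCI1 and the antisense gene RPA3-AS1. The library kit keeps strand, but the sources used here do not say whether the counting did.

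Of the clamp and its loader, edgeR called 3 members lower and none higher. PCNA, the sliding clamp, was at 219, 249, 101 and 332 FPKM in the inputs and 239, 243, 99.1 and 286 in RIP (log2 fold change -0.25 ± 0.18, adjusted p = 0.26). RFC4 was at 76.4, 61.1, 92.3 and 114 in the inputs and 60.1, 50.2, 36.4 and 72.1 in RIP (-0.97 ± 0.21, adjusted p = 0.0033). It was lower in every line, least in HCT116. RFC5 (-0.91 ± 0.18, adjusted p = 0.0019) and RFC3 (-0.48 ± 0.18, adjusted p = 0.047) were also lower by counts, and neither passed with limma on FPKM (RFC3 -0.18, RFC5 -0.52 at log2(FPKM + 1)). RFC3 also lost its call with no minimum on counts and without the HCT116, the DU145 or the SW1990 pair. RFC1, the large loader subunit, and RFC2 lay just outside the threshold, at -0.60 ± 0.25 (adjusted p = 0.064) and 0.41 ± 0.18 (adjusted p = 0.077). RFC2 passed as higher with DESeq2 (0.42, adjusted p = 0.014) and with limma on log2(FPKM + 1) (0.79, adjusted p = 0.0050), and its RIP levels of 54.7 to 102 lay above its input levels of 31.7 to 49.1. RFC1 passed as lower with no minimum on counts, library sizes only, upper-quartile factors or without the DU145 pair (-0.64 to -0.95). The log2 ratio of RFC2 exceeded those of the other 4 loader subunits in each line, RFC4 by 1.44 ± 0.34 and RFC1 by 1.03 ± 0.68 (SD, n = 4).

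The enzymes that finish DNA strands were higher. LIG1, the ligase that joins lagging-strand fragments, was at 10.8, 13.6, 6.645 and 15.0 FPKM in the inputs and 27.3, 77.6, 21.3 and 40.2 in RIP, with no overlap (log2 fold change 1.81 ± 0.27, adjusted p = 0.00026). FEN1, the flap endonuclease, was at 25.1 to 40.2 in the inputs and 43.6 to 73.7 in RIP (0.63 ± 0.17, adjusted p = 0.0090), and its call was lost with library sizes only or without the DU145 pair. TOP2A, the topoisomerase that separates replicated chromosomes, was at 59.8, 17.7, 59.2 and 50.6 in the inputs and 65.2, 30.02, 114 and 29.3 in RIP. Lines went both ways, and its log2 fold change was -0.22 ± 0.28 (adjusted p = 0.54), against 0.26 with limma on FPKM.

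Of the 4 enzymes of deoxynucleotide supply, RRM1 and TK1 were higher and TYMS and RRM2 did not pass the test. TYMS, thymidylate synthase, had the highest mean input level of all 44 and differed most between lines, at 64.2, 218, 171 and 556 FPKM. Its RIP levels of 57.3, 226, 169 and 540 followed the inputs closely (log2 fold change -0.21 ± 0.19, adjusted p = 0.37). On the log2 scale its ratio lay between -0.16 and 0.05. RRM1, the large subunit of ribonucleotide reductase, was higher by 0.77 ± 0.23 (adjusted p = 0.016). RRM2, the small subunit, had -0.41 ± 0.23 (adjusted p = 0.17) and went both ways over the lines. TK1, thymidine kinase, was higher by 0.93 ± 0.24 (adjusted p = 0.0086). The calls of RRM1 and TK1 were lost with library sizes only, that of RRM1 also without the HCT116 pair and that of TK1 also without the Hep3B or the DU145 pair. With library sizes only, RRM2 (-0.76, adjusted p = 0.021) and TYMS (-0.56, adjusted p = 0.034) passed as lower, so that the 4 genes turned from 2 higher and 0 lower to 0 higher and 2 lower.

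Summed over the 44 genes, FPKM was 1717, 2444, 1829 and 2655 in the inputs and 2859, 5399, 2788 and 3942 in RIP. These are folds of 1.66, 2.21, 1.52 and 1.48. As a share of all fragments, the 44 genes took 0.334% of the Hep3B input (95% Wilson interval 0.332 to 0.336) and 0.472% (0.470 to 0.474) of its RIP library. In HCT116 the share went from 0.489% (0.487 to 0.491) to 0.942% (0.939 to 0.945). In DU145 it went from 0.362% (0.361 to 0.364) to 0.491% (0.489 to 0.493), and in SW1990 from 0.455% (0.452 to 0.457) to 0.579% (0.577 to 0.581). The share was thus higher in RIP in every line, and most in HCT116. It was uneven over roles. The fold of summed FPKM was 2.96 to 5.49 for the MCM ring and 0.85 to 1.06 for the clamp and its loader, with the other roles between by mean log2 fold. The share of coding genes as a whole was not computed, so a rise common to mRNAs was not tested. The intervals cover counting error only, since fragments are not independent molecules. While the sum was higher, RIP was above input for 29, 26, 24 and 23 of the 44 genes in the 4 lines. These are 65.9, 59.1, 54.5 and 52.3%, where 54.4, 50.9, 52.3 and 50.2% of all genes tested were above input. In DU145 and SW1990 the members were thus near the share of all genes.

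The pattern over the genes was alike from line to line. Across the 44 genes, Pearson's r of the log2 ratios between 2 lines lay between 0.849 (DU145 and SW1990) and 0.924 (HCT116 and SW1990). Across the 13564 coding genes tested it lay between 0.733 and 0.844. These values describe libraries, and genes are not independent replicates. HCT116 gave the highest ratio for 13 of the 19 members called higher, and the median ratio of those 19 was 2.10 there and 1.39 to 1.56 in the other lines. The same count over all genes called higher was not made, so a trait of the whole HCT116 pair was not tested.

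Input levels differed between lines more than 5 times for 3 members only. The ratio of the highest to the lowest input was 8.66 for TYMS, 5.48 for CDT1, 5.45 for GINS2 and 4.69 for POLE2. TYMS and GINS2 were highest in SW1990, CDT1 in HCT116 and POLE2 in DU145. CDC6 was at the other end, at 21.3 to 25.1 in the 4 inputs, a ratio of 1.18. HCT116 had the highest input for 18 members, SW1990 for 13, Hep3B for 7 and DU145 for 6, and the lowest was in Hep3B for 22. The same counts over all genes tested were not made, so these have no background here. Summed over all listed genes, FPKM was 1659968 in the Hep3B input and 884796 to 981929 in the other inputs. With 1 input per line and 2 separately deposited tables, these differences were not tested. Fewer cells in S phase, less mRNA per cell and a difference in scaling cannot be told apart.

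**Figure D4:**
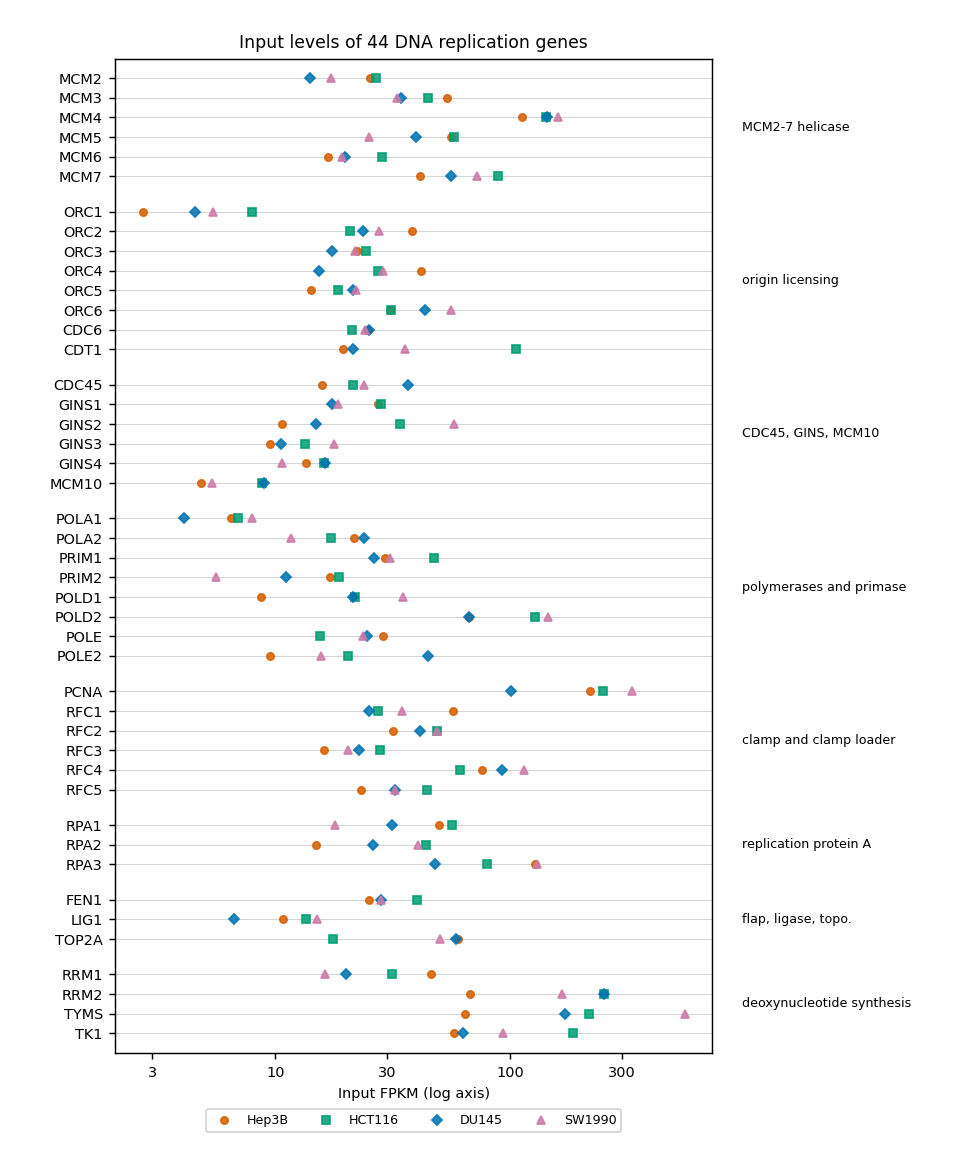
Input FPKM on a log axis for the 44 genes (rows, by role), with 1 symbol per cell line and no replicate within a line. TYMS, PCNA and RRM2 reach the highest levels, ORC1 and POLA1 lie near the low end, and the symbols of TYMS lie farthest apart.

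The members that rose and fell differed in implied length, a measure chosen after the values were seen. It is derived from estimated counts and FPKM and was not compared with annotated transcript lengths. The length implied by estimated counts and FPKM had a median of 2657 bases for the 19 higher members, 1483 for the 15 lower and 2399 for the other 10. Coding genes tested had medians of 2751, 1951 and 2285 bases in the same classes. Across the 44 genes, Spearman's rho of log2 fold change with length was 0.59, against 0.26 across 13551 coding genes. For mean input FPKM it was -0.08, against -0.16 across 13564 coding genes. In some complexes the order followed implied length and in others it did not, and both kinds are named after their values were seen. RPA1, RPA2 and RPA3 had implied lengths of 3143, 1904 and 599 bases, POLE and POLE2 4885 and 1141, and ORC1 and ORC6 4245 and 1273. On the other side, RFC2 at 1574 bases had a higher log2 fold change than RFC1 at 2562, RFC3 at 1962 and RFC5 at 1834, and CDC45 at 1691 a higher one than GINS1 at 2245 and GINS2 at 2534. POLA1 at 5462 bases and TOP2A at 6584 did not pass the test, while POLA2 at 1697 bases was higher. FPKM itself contains a length, and the part of length in the changes was not tested.

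**Figure D5:**
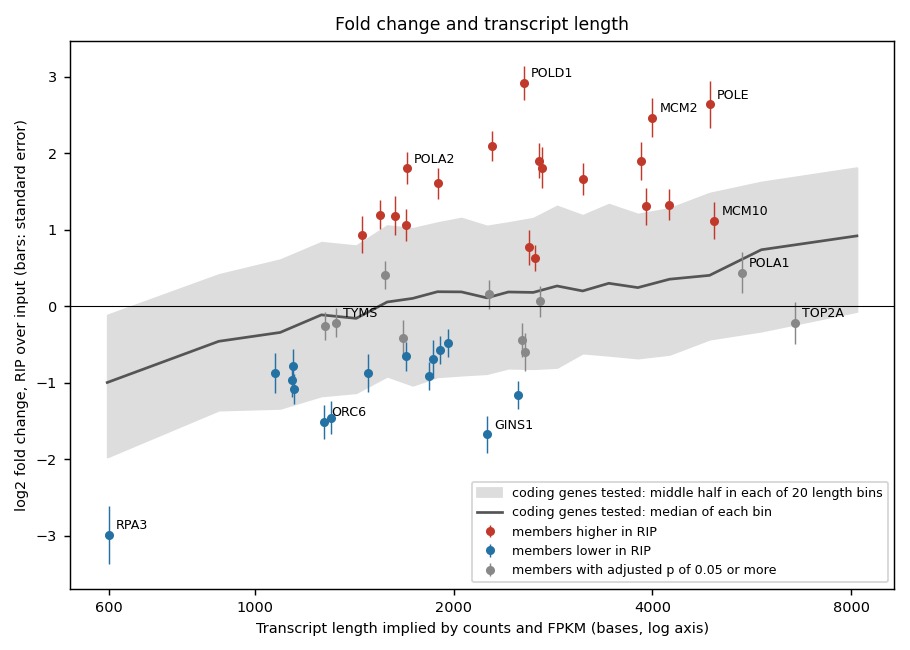
Log2 fold change of RIP over input (vertical axis, bars for the standard error) against the transcript length implied by counts and FPKM (log axis, bases) for the 44 genes, over the median and the interquartile range of coding genes in 20 length bins. RPA3 is at the lower left at 599 bases, and the members called higher (red) lie at 1452 bases or more.

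Other genes of the pathway, from lists written for this comparison, had calls in both directions. The coding genes tested give the background, 32.3% higher and 26.1% lower. Of 44 other fork and initiation genes, all tested, 15 were higher (34.1%) and 17 lower (38.6%), with a median log2 fold change of 0.19. The helicase RECQL4 (2.53 ± 0.21), the clamp loader subunit CHTF18 (2.22 ± 0.26) and the maintenance methyltransferase DNMT1 (1.81 ± 0.28) were the 3 highest by log2 fold change. The 3 lowest were the histone chaperone ASF1A (-2.37 ± 0.28), DBF4, the activator of the kinase CDC7 (-2.15 ± 0.27), and the histone chaperone NASP (-1.86 ± 0.23). Each of the 6 had the same direction in all lines.

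Of 26 other nucleotide synthesis genes, 9 were higher (34.6%) and 8 lower (30.8%), near the shares of coding genes, with a median log2 fold change of 0.01. CAD, which starts pyrimidine synthesis, was higher by 3.24 ± 0.26, from a mean of 13.8 FPKM in the inputs to 135 in RIP. PFAS (2.49 ± 0.21) and IMPDH1 (2.41 ± 0.20), both of purine synthesis, followed it. Among the lowest were RRM2B (-2.25 ± 0.20), an alternative small subunit of ribonucleotide reductase, and PAICS (-1.995 ± 0.19), of purine synthesis.

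Among 40 mitosis genes, 10 were higher and 16 lower, against 32.3% and 26.1% of coding genes and 26.5% and 24.9% of all genes, with a median log2 fold change of -0.44. The separase ESPL1 (2.58 ± 0.21), the condensin subunit NCAPD2 (2.28 ± 0.25) and the kinase PLK1 (1.94 ± 0.20) were highest. MAD2L1, of the spindle checkpoint (-2.14 ± 0.20), and the kinetochore subunits SPC25 (-2.07 ± 0.25) and NUF2 (-1.76 ± 0.26) were lowest. Of 13 E2F and RB family genes, 3 were higher (23.1%) and 5 lower (38.5%). E2F2 (1.501 ± 0.20), E2F1 (0.98 ± 0.17) and E2F4 (0.77 ± 0.20) were higher, and TFDP2 (-1.02 ± 0.18), RB1 (-0.95 ± 0.19) and E2F6 (-0.72 ± 0.19) were the lowest. All genes named from these lists passed an adjusted p of 0.05 in edgeR's test.

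Shared loci limit some values. The locus listed for 24 of the 44 genes also covers other listed genes, between which fragments may have been split. Of the 20 whose locus holds no other gene, 12 were higher and 5 lower, where all 44 had 19 higher and 15 lower. Most of the lower calls thus fell in loci shared with other genes. Among coding genes tested, whatever their locus, 32.3% were higher and 26.1% lower. Listed pseudogene copies of POLD2, PCNA, RFC3, RPA2, FEN1 and RRM2 were at 1.03 FPKM or less in every library.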

How the data were processed

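RPS6 RIP libraries and their inputs came from 4 cell lines, 1 of each kind per line. The sources used here name TopHat and human genome version 19, and the submitters' processing notes name CASAVA 1.8, TopHat2 2.0.9 and hg19. The quantifier, annotation release and filters are not given in the sources used here. The authors deposited FPKM per gene and library, normalized for length and depth, in 2 tables of 2 lines each. They also deposited estimated counts, most of which are whole multiples of a step common to the library. The other 4 deposited tables hold the authors' fold changes, p-values and q-values of 1 library against 1 library and were not used. All columns of values per sample in the gene tables were used.

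The design had assumed raw counts. After rounding of the estimated counts to whole numbers, edgeR 4.0.16 in R 4.3.3 was used (quasi-likelihood test, TMM, a block for the cell line, Benjamini-Hochberg adjustment over all genes, threshold 0.05). Genes entered at a mean count of 10 or more. The script was tested on simulated counts. RIP and input share a lysate by design. Deviations of RIP libraries from their group mean correlated with those of their own input with r of 0.851 to 0.904. With any other input, r was at most -0.026. Subtracting a group mean by itself pushes r with other inputs toward negative values, so only the higher r with the own input is read. Whole fragments were recovered by dividing each library's counts by their common step, which gave whole values, within 0.01, for 88.8 to 93.2% of counts above 0. They gave depth, 95% Wilson intervals and 1 added test. Ratios per line used log2 of (FPKM + 1).

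The 44 genes, roles and pathway lists were chosen with earlier results of these data known, so counts over them are descriptions without a test of the list. Values in every library are given for the most abundant gene of each role, up to 8 higher and 8 lower genes of largest change with 1 direction in all lines, and the 4 with the widest input range. Pathway lists are named by their 3 highest and 3 lowest. A gene of these and some cell line markers are not reported here. Where 2 listed genes shared a symbol in a list (CHTF8, RBL1), the one with more counts was kept. Coding genes were recognized by RefSeq symbols of GRCh38.p14, used for names and promoters, with hg19 kept for loci. Relation to protein length was not analysed here, and implied transcript length, chosen after the values were seen, took its place. It is the estimated count divided by FPKM and by the library's summed counts, in bases, averaged over inputs.

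The alternatives were no block, DESeq2 1.42.0, limma 3.58.1 with log2(FPKM + 1) and with log2(FPKM + 0.1), no minimum or a mean of 50 counts, library sizes only, upper-quartile factors, recovered fragments, and each pair left out in turn. Python 3.11.15, pandas 2.3.3, SciPy 1.17.1, NumPy 2.4.6 and matplotlib 3.10.9 were used for other steps. P-values measure the spread between 4 lines with 1 pair each.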

Additional observations from a re-analysis of the deposited data

Results flagged for a closer look

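Input levels, RIP levels and log2 ratios of the 44 genes gave 132 groups of 4 lines, and in 8 of them 1 line lay far from the other lines by Dixon's ratio of gap to range at the level of 95%. Chance gives such a value in about 1 in 20 groups, and the number found was near that share. The groups are not independent, since the ratios are built from the same levels. In 7 of the 8 the line was HCT116.

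The RIP level of MCM2 in HCT116 was 261 FPKM, against 67.6 to 91.2 in the other lines. The log2 ratio of MCM7 was 2.57 in HCT116, against 1.63 to 1.77. That of MCM10 was 2.02 in HCT116, against 1.08 to 1.24. For origin licensing, the RIP level of CDT1 in HCT116 was 283 FPKM, against 86.1 to 95.5, where its input there was high too. The log2 ratio of ORC4 was -0.54 in HCT116, against -0.96 to -0.91. POLA1 was at 15.8 FPKM in the HCT116 RIP library, against 8.82 to 9.84, and RFC3 at 25.5 FPKM, against 16.2 to 17.6. Outside HCT116, the log2 ratio of PRIM2 was -1.51 in Hep3B, against -0.53 to -0.39. With 1 pair per line, the difference of a line from the others was not tested.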

How the results depend on the processing

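Without the replicate block, calls fell from 5282 to 1427 higher and from 4960 to 1344 lower over all genes, and from 19 to 7 higher and from 15 to 3 lower among the 44. Lower members numbered 8 with limma on log2(FPKM + 1) and 9 with limma on log2(FPKM + 0.1), where lower genes in all also fell, to 3660 and 3897. Leaving out 1 pair at a time gave 17 to 19 higher members and 9 to 14 lower ones, with 9 lower without the DU145 pair, and 4448 to 4808 higher and 4084 to 5083 lower genes in all. Fewer pairs lower the power of the test, and the cause was otherwise not tested. Of the 19 higher members, 16 kept the call in all settings with the block (FEN1, RRM1 and TK1 did not), and 7 of the 15 lower did (ORC2, ORC4, ORC6, GINS1, PRIM1, RFC4 and RPA3). No called member changed sign. Of the members not called, CDC6 turned to -0.29 with library sizes only, -0.0583 with upper-quartile factors, -0.0935 without the Hep3B pair and -0.0579 without the HCT116 pair, GINS3 to -0.19 with library sizes only, and TOP2A to 0.26 with limma on either FPKM scale and 0.0889 without the SW1990 pair. Library sizes only moved the median of all genes to -0.40, upper-quartile factors to -0.18 and no minimum on counts to -0.60, and changes are relative to these. Each member rests on at least 109 fragments in every library, and PRIM2, RPA3 and POLE2 have the lowest counts.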
